A study of Mus musculus with 16 samples.

Results

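The splicing machinery of the cell is represented on the array by 80 of 18138 gene entries, chosen by symbol: the Sm and LSm proteins, the U1 and U2 snRNP proteins with U2AF, the numbered Prp factors, the SR proteins and their relatives, and the hnRNP proteins. Hnrnpd was left out by the rule of choice, so the hnRNP counts do not cover it. The array carries older names for many of the entries. Srsf1 appears as Sfrs1 and Srsf11 as Sfrs11, while Sfrs8 is Sfswap, Sfrs10 is Tra2b and Sfrs12 is Srek1. By gene ID 77 entries were matched to RefSeq and are given here by their current symbol. Entries without a match (Hnrpc, Hnrph1 and Sfrs16) keep the name on the array. The matched entries stand for 75 genes, since Hnrnpk and Hnrnpul1 each have 2 entries, under the older and the newer spelling. Of the 80 entries, 64 were above background (detection p under 0.01) on at least 2 of 16 arrays and were tested, 57 of them on every array. The other 16 were Snrpe, Snrpb2, Lsm1, Lsm11, Sf3b1, Prpf31, Prpf39, Prpf40b, Prpf4b, Tra2b, Srek1ip1, Scaf4, Hnrnpr, Hnrnpa3, Hnrnpu and the older entry of Hnrnpul1, which were above background on no array (14 entries) or on 1 array (2 entries) and were not tested.

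The cells were D10, a fast-growing variant of a murine Th2 clone grown with interleukin-2, which is a single line and not primary T cells. Control cells got no inhibitor. The study's methods call them untreated, its results give solvent as their treatment, and the labels name no vehicle. The others were exposed for 1 h to 10 µM Akti1/2, an allosteric inhibitor of the kinases Akt1 and Akt2. Both were then given biotinylated antibodies to CD3 and CD28 with streptavidin and harvested at 0, 2, 6 and 12 h, which makes 8 groups of 2 arrays, with each group present on both chips. The Th2 label was checked against markers. All 9 T-cell genes measured (among them Cd3e, Lck and Zap70) were above background on 16 arrays and Cd4 on 13. Of the Th2 markers, Gata3, Il4, Il5, Il13 and Il1rl1 were above background on 16 arrays, but Ccr4 was on none and so goes against the label. Cd8a, Cd8b1, Ifng and Foxp3, markers of other T cells, were above background on none. Between 58 and 64 of the 80 entries were above background on each array. The labels do not say whether the 2 arrays of a group came from separate cultures, so the p-values measure the spread between these samples, which may be technical, and the precision is limited by the number of arrays.

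Introns are removed by the spliceosome, which is built from small nuclear RNAs packed with proteins into snRNPs. A ring of Sm proteins encircles the U1, U2, U4 and U5 RNAs and a ring of LSm proteins sits on U6. U1 marks the 5′ splice site, U2 with its SF3A and SF3B subunits and the U2AF dimer marks the branch point and the 3′ splice site, and Prp factors join and remodel the tri-snRNP before catalysis. SR proteins bind exons and mostly favour their inclusion, while hnRNP proteins coat pre-mRNA and often work against inclusion. T cells rely on these factors when they switch isoforms upon activation, as with Ptprc (CD45).

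Before the values, the proximal promoters of 6 members are shown, since 4 of these genes were lower with the inhibitor at 12 h (Srsf1, Snrpd3, Snrpg and Srsf6), 1 was higher (Lsm10) and 1 fell during stimulation with and without it (Srsf5). Each is the 250 bases before the annotated start, 5′ to 3′ on the gene's strand, from RefSeq on GRCm38.p6; all 6 lie on the + strand. They are chr11:88047123-88047372 for Srsf1, chr10:75517792-75518041 for Snrpd3, chr6:86371290-86371539 for Snrpg, chr12:80945249-80945498 for Srsf5, chr2:162931258-162931507 for Srsf6 and chr4:126096403-126096652 for Lsm10. Capitals mark the ETS core CCGGAA on either strand and, in Snrpg, the cyclic AMP response element TGACGTCA.
Srsf1: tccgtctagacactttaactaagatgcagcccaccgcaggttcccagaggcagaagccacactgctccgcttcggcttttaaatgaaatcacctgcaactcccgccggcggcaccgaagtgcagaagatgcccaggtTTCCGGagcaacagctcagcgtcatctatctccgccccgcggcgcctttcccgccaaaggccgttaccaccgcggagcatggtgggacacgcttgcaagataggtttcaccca
Snrpd3: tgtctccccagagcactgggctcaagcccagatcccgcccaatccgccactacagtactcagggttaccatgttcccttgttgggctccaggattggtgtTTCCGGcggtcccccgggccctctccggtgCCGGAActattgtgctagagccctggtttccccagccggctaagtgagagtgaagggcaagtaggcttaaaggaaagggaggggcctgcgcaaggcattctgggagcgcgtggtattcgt
Snrpg: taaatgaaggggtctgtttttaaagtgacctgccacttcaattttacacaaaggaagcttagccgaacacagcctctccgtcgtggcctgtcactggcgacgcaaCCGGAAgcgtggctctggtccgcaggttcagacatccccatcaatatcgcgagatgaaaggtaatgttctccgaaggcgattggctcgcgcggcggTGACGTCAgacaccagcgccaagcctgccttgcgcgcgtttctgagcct
Srsf5: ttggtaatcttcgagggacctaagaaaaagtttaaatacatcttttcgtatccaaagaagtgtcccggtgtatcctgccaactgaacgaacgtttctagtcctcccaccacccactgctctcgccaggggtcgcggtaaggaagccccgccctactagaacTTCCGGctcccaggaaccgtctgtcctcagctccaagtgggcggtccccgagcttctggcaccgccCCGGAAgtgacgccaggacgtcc
Srsf6: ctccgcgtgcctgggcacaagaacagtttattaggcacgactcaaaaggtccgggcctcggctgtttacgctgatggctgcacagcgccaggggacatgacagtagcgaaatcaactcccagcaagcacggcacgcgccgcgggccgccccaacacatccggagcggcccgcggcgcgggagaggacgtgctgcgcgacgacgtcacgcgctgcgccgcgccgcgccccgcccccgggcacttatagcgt
Lsm10: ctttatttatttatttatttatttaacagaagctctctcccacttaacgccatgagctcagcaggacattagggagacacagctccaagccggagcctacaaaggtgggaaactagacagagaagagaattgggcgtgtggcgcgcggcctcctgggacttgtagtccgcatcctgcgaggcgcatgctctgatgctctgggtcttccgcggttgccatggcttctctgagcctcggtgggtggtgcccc

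Of 60 gene IDs tested, 50 had such a promoter in the table, some of them more than 1. CCGGAA was present in 41.8% of the 67 promoters of tested members, in 24.1% of the 7046 promoters of all tested genes and in 12.0% of all 32851 promoters. Among the 11 promoters of the Sm and SR genes that were lower with Akti1/2 at 12 h, 7 (63.6%) held it. By gene it was found in 4 of 7 SR genes that were lower, in 4 of 4 that were not called, and in 2 of 3 Sm genes with a promoter. The LSm genes that were called, 2 higher and 3 lower, had none, as seen in the Lsm10 sequence above. The E-box CACGTG was in none of the 11 promoters, against 8.53% of the promoters of all tested genes, and TGACGTCA was in 1 of the 11, against 2.75%. All motifs were searched on both strands. CCGGAA and its reverse TTCCGG can share letters with each other, in which case the promoter was counted once, and none of the motifs contains another. A match is a description of the letters, not a binding site.

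At 0 h, after 1 h with the inhibitor and without stimulation, no difference was found in these genes. Longer times with the inhibitor were not measured without stimulation. Levels are log2 intensities after background correction and quantile normalization, and a gene is called where limma's Benjamini-Hochberg adjusted p over all 7395 tested genes was under 0.05. At 0 h none of the 64 tested entries differed between Akti1/2-treated and control cells, beside 0.0541% of all genes (0.0406% higher, 0.0135% lower), and 1 of 64 had an unadjusted p under 0.05. The lowest adjusted p was 0.854 (limma), for Srsf6, at a log2 difference of -0.28 ± 0.11 (SE, 2 arrays a group). The later differences are therefore given both against control cells at the same time and as the difference between the 2 responses, each from its own 0 h arrays.

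In control cells most of the machinery stayed near its resting level. At 2 h only 2 of 64 entries were called, beside 10.3% of all genes (4.42% higher, 5.86% lower): Srsf3 rose by 0.41 on the log2 scale (adjusted p = 0.0442, limma) and Lsm10, a protein of the U7 snRNP that trims histone mRNA, fell by 0.55 (adjusted p = 0.0418, limma). Both calls are near the threshold: leaving out any of 11 arrays lost the first and any of 10 arrays the second. Scaled to the same mean, the arrays gave 0 higher and 2 lower. At 6 h 9 entries were higher and 2 lower, or 17.2% of the entries beside 27.6% of all genes (12.1% higher, 15.4% lower). Those that rose were Srsf3, Srsf7, Srsf1, Lsm12, Lsm2, Lsm6, Prpf3, Prpf38b and Hnrnpa1, by 0.32 to 0.69 on the log2 scale, and those that fell were Lsm8 (-0.50) and Prpf18 (-0.50), a factor of the second catalytic step. Without the array of 0 h control replicate 1, 4 of the 11 calls were made, and without 0 h control replicate 2 or either 6 h control array, 5 or 6. At 12 h 4 were higher and 5 lower, or 14.1% of the entries beside 27.8% of all genes (12.7% higher, 15.1% lower); Lsm2, part of the ring on U6, rose by 0.70 ± 0.13 (adjusted p = 0.00195, limma) and Srsf5 fell by 1.37 ± 0.17 (adjusted p = 8.15e-05, limma). The 12 h count was 4 without 0 h control replicate 1 or 12 h control replicate 1, and 5 without 12 h control replicate 2.

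**Figure D1:**
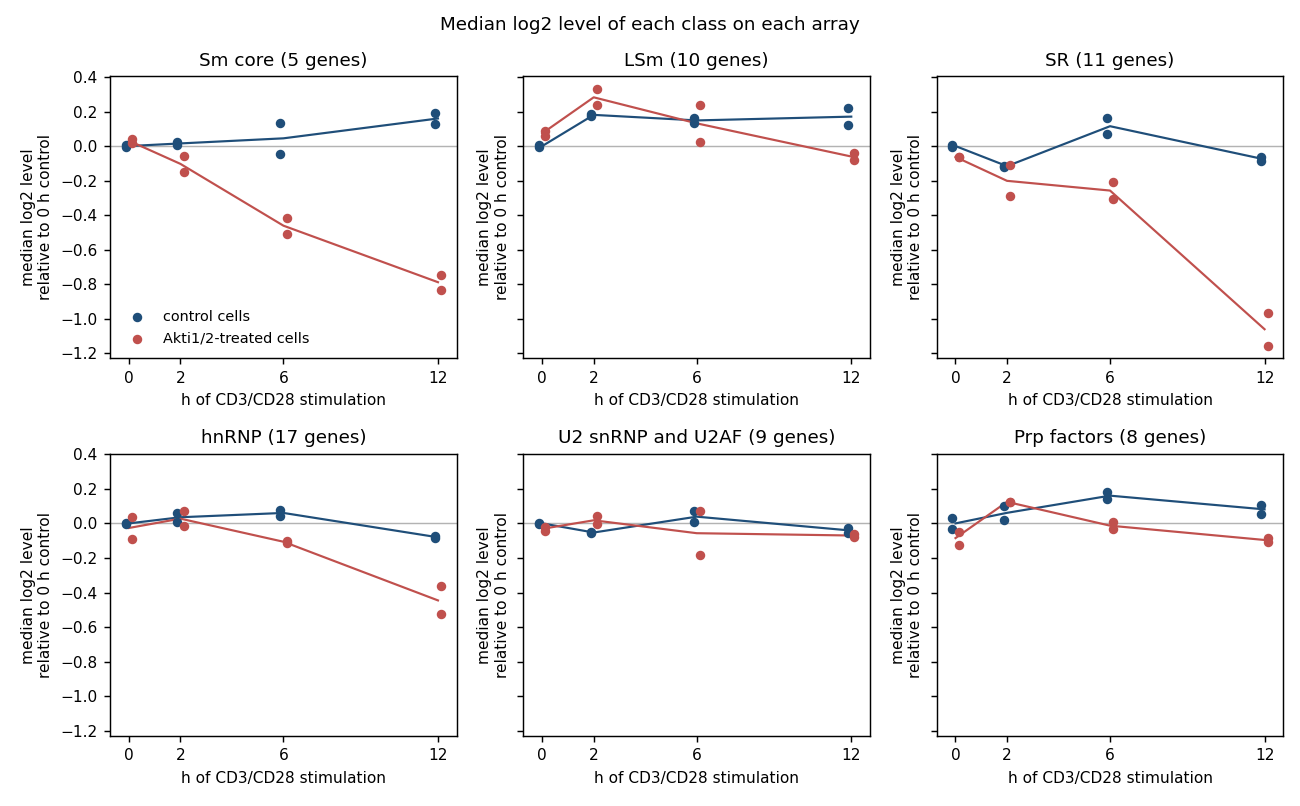
Median over the tested genes of a class of the log2 level on each array, relative to the mean of the 2 arrays of 0 h control cells (y axis), against hours of CD3/CD28 stimulation (x axis); points are arrays and lines join group means. The Sm core medians of the Akti1/2-treated arrays lay at -0.83 and -0.74 at 12 h and the SR medians at -1.15 and -0.97, while those of control cells stayed between -0.12 and 0.19.

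With the inhibitor the class medians of the Sm core and the SR proteins lay furthest from those of control cells at 12 h. Each median is taken over the tested genes of a class on one array, relative to the 0 h control arrays. For the Sm core (5 genes) it was 0.19 and 0.13 on the 12 h control arrays and -0.83 and -0.74 on the 12 h Akti1/2 arrays. For the SR proteins (11 genes) control cells had -0.07 and -0.09 where Akti1/2-treated cells had -1.15 and -0.97, and for the hnRNP proteins (17 genes) -0.09 and -0.08 against -0.53 and -0.37. The 12 h arrays of the 2 conditions did not overlap in these 3 classes, but neither did they in any other class. The median of all tested genes did not overlap either, at -0.0137 and -0.0046 in control and -0.0288 and -0.0327 in Akti1/2-treated cells. Lack of overlap alone therefore does not set a class apart. In the U2 snRNP class (9 genes) the nearest 12 h arrays were at -0.0584 (control) and -0.0605 (Akti1/2). Medians of the U2 class and of the Prp factors (8 genes) lay between -0.18 and 0.07 and between -0.12 and 0.18 on all 16 arrays, as the plot of class medians by array shows. The classes were not tested against each other.

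Counted gene by gene, Akti1/2 and control cells differed at 2 h in 18 of 64 entries (9 higher, 9 lower; 28.1% beside 28.4% of all genes, of which 13.5% were higher and 14.9% lower), at 6 h in 28 (7 higher, 21 lower; 43.8% beside 37.6%) and at 12 h in 33 (6 higher, 27 lower; 51.6% beside 49%). The total was thus near that of all genes at every time, and it was the direction that was uneven: at 12 h 42.2% of the entries were lower beside 24.8% of all genes, and 9.38% were higher beside 24.2%. At 6 h 32.8% were lower beside 18.8% of all genes. The median log2 difference of the entries was -0.31 at 12 h and -0.25 at 6 h, beside -0.02 and -0.01 for all genes. At 2 h neither direction led, and scaling the arrays to the same mean in place of quantile normalization turned the 2 h split to 6 higher and 10 lower. The entries higher with Akti1/2 at 2 h, against control cells or against 0 h, include Hnrnpul1 and Srek1. Both passed the filter only through Akti1/2 arrays, and Srek1 is among the higher ones at 6 h as well. All 18, 28 and 33 differences had the same sign on both chips, and with the chip as a block the counts were 17, 28 and 33. The 2 h count was 9 without 2 h control replicate 1 or without 2 h Akti1/2 replicate 2, and 11 without 2 h control replicate 2. In bulk RNA, fewer cells that express a gene and less of its RNA per cell cannot be told apart, nor, with 1 value per gene, can a change of amount and a change of isoform.

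**Figure D2:**
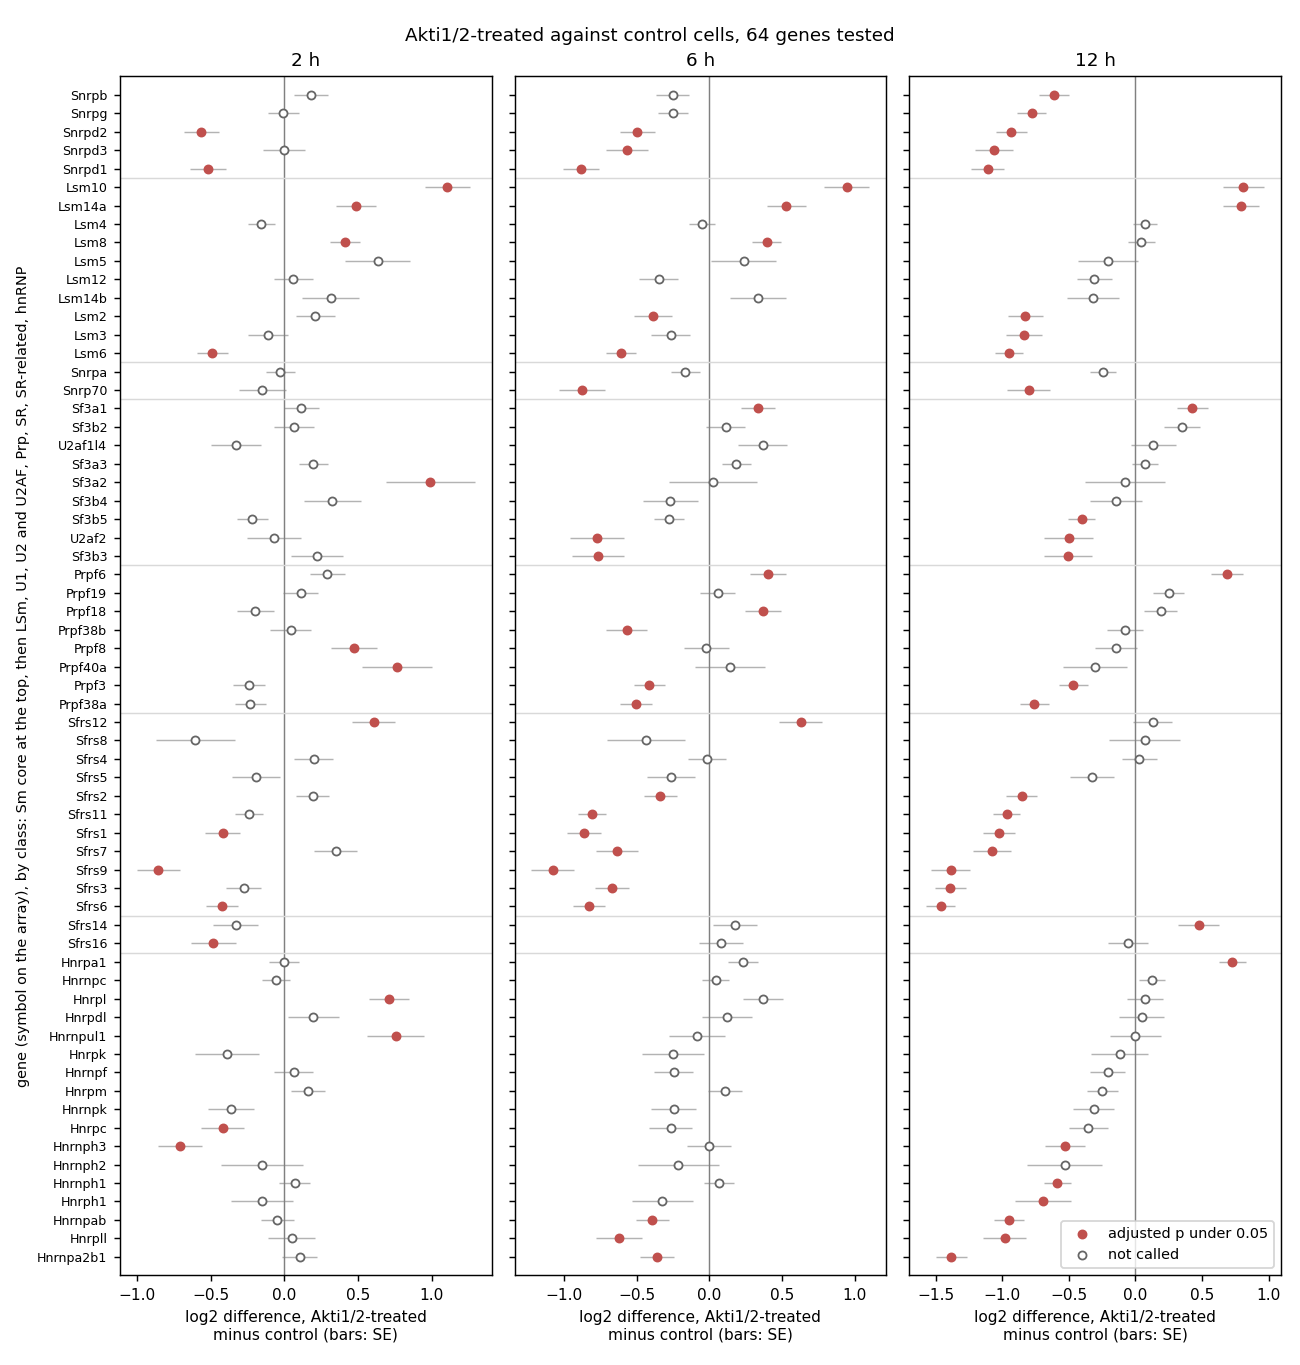
Log2 difference between Akti1/2-treated and control cells (x axis) for each of the 64 tested entries (y axis, symbols as on the array, grouped by class) at 2, 6 and 12 h of stimulation; bars are standard errors and filled points have a limma adjusted p under 0.05. At 12 h all 5 Sm core points and 7 of 11 SR points are filled and left of 0, down to -1.46 for Sfrs6 (Srsf6), and Lsm10 is right of 0 at all 3 times.

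The Sm core was lower as a whole at 12 h. All 5 tested Sm genes were lower with Akti1/2 (median -0.93), beside 24.8% of all genes lower, and all 5 calls were made whichever single array was left out. At 6 h 3 of the 5 were lower (all 5 with either other normalization) and at 2 h 2 of the 5, the latter count being 1 without 2 h control replicate 1 or 2 h Akti1/2 replicate 1. Snrpd1, which with Snrpd2 forms one of the Sm heterodimers, had normalized log2 intensities in control cells of 12.38 and 12.30 at 0 h, 12.31 and 12.17 at 2 h, 12.29 and 12.47 at 6 h, then 12.38 and 12.52 at 12 h. With Akti1/2 they were 12.36 and 12.29, 11.66 and 11.78, 11.65 and 11.35, then 11.30 and 11.38 at the same times. The arrays of the 2 conditions overlapped at 0 h and were apart from 2 h on, with the lowest values at 12 h. The difference in Snrpd1 was -0.52 ± 0.12 at 2 h, -0.88 at 6 h and -1.11 at 12 h (SE, adjusted p = 0.00919, 1.80e-04 and 1.57e-05, limma), the last of which is 0.464 times the control intensity.

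Snrpd2, its partner, moved over the same span. Control arrays read 12.71 and 12.82 at 0 h, 12.80 and 12.91 at 2 h, 12.66 and 12.93 at 6 h, then 13.02 and 12.83 at 12 h, and Akti1/2 arrays 12.81 and 12.81, 12.35 and 12.24, 12.25 and 12.35, then 11.96 and 12.02. All stimulated Akti1/2 arrays were below all control arrays of the same time, and the difference was -0.56 at 2 h, -0.49 at 6 h and -0.93 ± 0.12 at 12 h (adjusted p at 12 h = 4.30e-05, limma). The 6 h call was lost without 6 h control replicate 2, at an adjusted p of 0.0701.

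Snrpd3 was later. This gene, whose protein pairs with SmB, was at 12.08 and 12.09, 12.29 and 12.09, 12.25 and 12.19, then 12.28 and 12.21 at 0, 2, 6 and 12 h in control cells. With Akti1/2 it was at 12.23 and 12.14, 12.17 and 12.20, 11.58 and 11.73, then 10.94 and 11.42, so that the conditions overlapped at 2 h and were apart at 6 and 12 h. Its difference was -0.00295 at 2 h, -0.57 at 6 h and -1.06 ± 0.14 at 12 h (adjusted p at 12 h = 6.41e-05, limma). Snrpg, another ring member, and Snrpb, which encodes SmB, were called at 12 h, and at 6 h with either other normalization but not with this one. At 12 h they were at -0.78 (adjusted p = 7.20e-05) and -0.61 (adjusted p = 7.07e-04, both limma). In control cells none of the 5 Sm genes changed at any time by the test, with medians of 0.03, 0.04 and 0.16 over 0 h at 2, 6 and 12 h; within Akti1/2-treated cells all 5 fell from 0 to 12 h. The change from 0 to 12 h differed between the 2 conditions for all 5, by -0.66 (Snrpb) to -1.16 (Snrpd3).

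**Figure D3:**
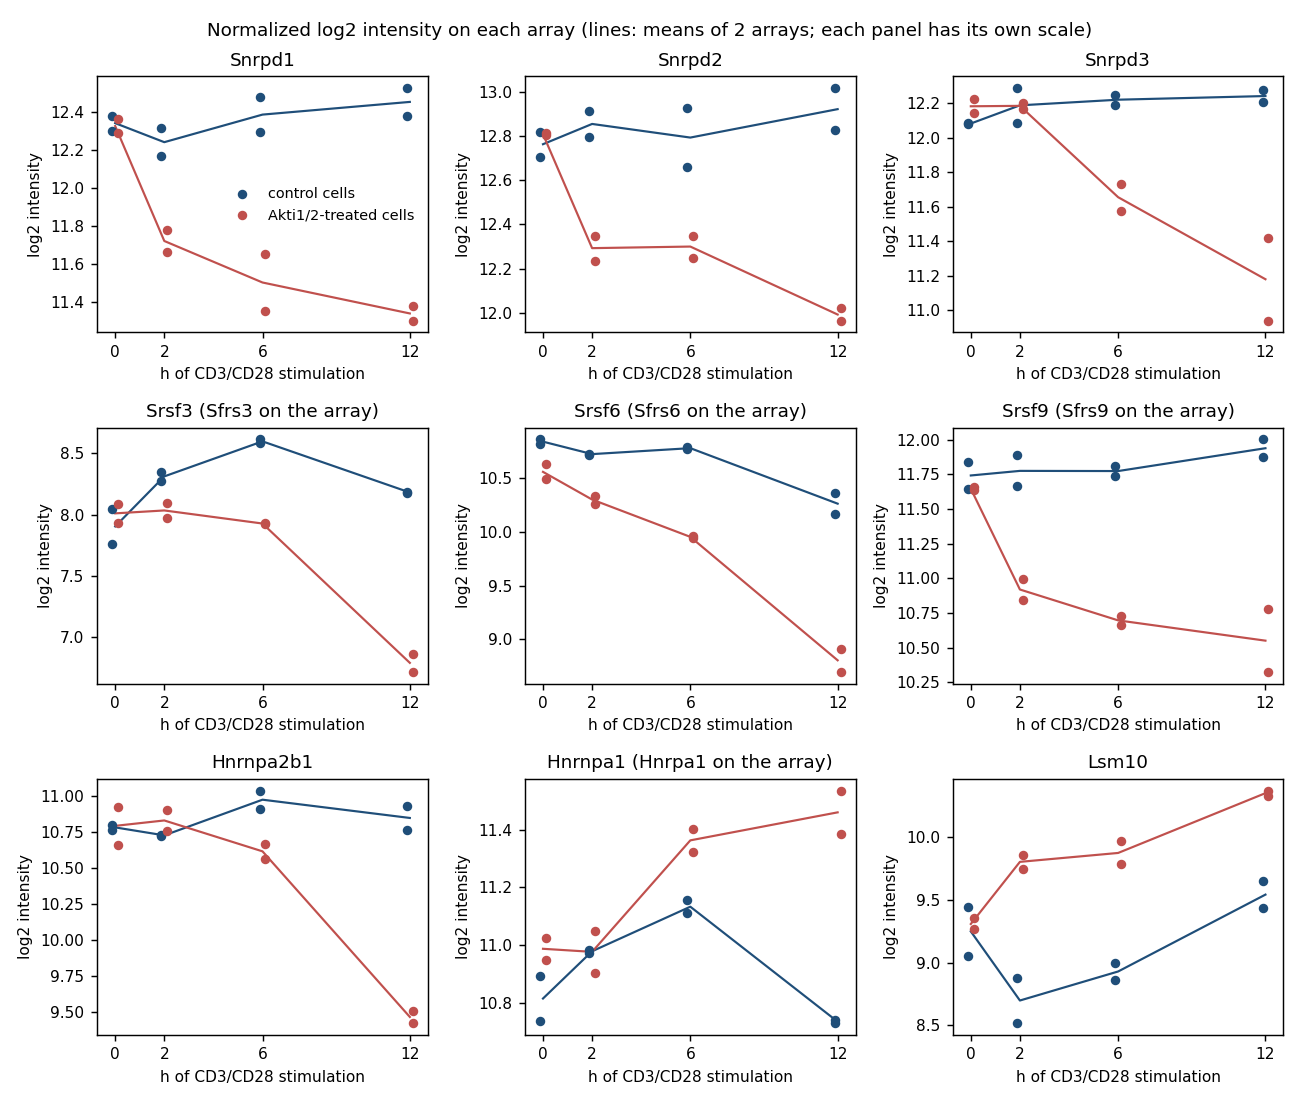
Normalized log2 intensity (y axis, each panel with its own scale) of 9 members on each array against hours of CD3/CD28 stimulation (x axis); points are arrays, lines join the means of 2 arrays. By the test, Snrpd1, Snrpd2, Srsf6 and Srsf9 are lower with Akti1/2 from 2 h on and Snrpd3, Srsf3 and Hnrnpa2b1 from 6 h, while Lsm10 is higher from 2 h and Hnrnpa1 at 12 h.

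The LSm proteins, which share the Sm fold, did not move as a block. At 12 h 3 of 10 were lower and 2 higher (median -0.26), beside 24.8% and 24.2% of all genes. Lsm6, Lsm3 and Lsm2, which belong to the ring on U6, were lower, with differences of -0.95, -0.83 and -0.83 (adjusted p = 1.37e-05, 2.73e-04 and 2.39e-04, limma). Of the ring members Lsm4, Lsm5 and Lsm8, none was called at 12 h, at 0.07 (95% interval -0.12 to 0.27), -0.21 (-0.69 to 0.28) and 0.05 (-0.17 to 0.26). Lsm2 rose in control cells from 10.36 and 10.32 at 0 h to 10.94 and 11.13 at 12 h and stood at 10.14 and 10.28 at 12 h with Akti1/2, close to its 0 h level there of 10.22 and 10.27. Lsm8 was higher with Akti1/2 at 2 h (0.41) and 6 h (0.39) and not at 12 h, and both calls were lost without 1 array (2 h control replicate 2 and 6 h Akti1/2 replicate 2). Lsm12 was at -0.31 at 12 h (adjusted p = 0.0710, limma).

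Lsm10 went the other way from the Sm genes. It replaces Sm proteins in the U7 snRNP, together with Lsm11, which was not above background here. Control arrays read 9.45 and 9.05 at 0 h, 8.52 and 8.88 at 2 h, 9.00 and 8.86 at 6 h, then 9.44 and 9.65 at 12 h. Akti1/2 arrays read 9.26 and 9.35, 9.75 and 9.86, 9.78 and 9.97, then 10.37 and 10.33, above both control arrays at every time after 0 h. The difference was 1.11 ± 0.15 at 2 h, 0.94 at 6 h and 0.81 at 12 h (adjusted p = 4.30e-04, 5.18e-04 and 9.36e-04, limma), the largest positive difference among the tested entries at each of the 3 times. Lsm14a, a protein of cytoplasmic P-bodies and not of the spliceosome, was higher as well, by 0.49, 0.53 and 0.79 (adjusted p at 12 h = 4.10e-04, limma). Lsm14b was above background on 10 of 16 arrays and was not called.

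Of the U1 and U2 proteins, some were called between conditions and others were not, and the members were not tested against each other. Of the 2 U1 proteins, Snrnp70 (U1-70K, which contacts SR proteins) was lower with Akti1/2 at 6 h (-0.87 ± 0.16, adjusted p = 0.00108) and 12 h (-0.80, adjusted p = 0.00120, both limma), from 9.66 and 9.30 on the 12 h control arrays to 8.60 and 8.76. Snrpa, the A protein of U1, was at -0.24 at 12 h (adjusted p = 0.0607, limma). In the U2 class 3 of 9 were lower at 12 h and 1 higher, beside the same 24.8% and 24.2%. Sf3b5 and Sf3b3, subunits of SF3B, and U2af2, the large U2AF subunit that binds the polypyrimidine tract, were at -0.40, -0.51 and -0.50 (adjusted p = 0.00637, 0.0332 and 0.0387, limma), and Sf3a1 was higher by 0.43 (adjusted p = 0.0102, limma). The 12 h calls of Sf3b3, U2af2 and Sf3a1 are weak: leaving out a single 12 h array took them to an adjusted p of 0.151, 0.227 and 0.107, and the U2af2 call was also absent with either other normalization. Sf3a3 was at 0.07 at 12 h (95% interval -0.15 to 0.29). At 6 h 2 of the 9 were lower and 1 higher, beside 18.8% of all genes each way. The 2 lower were Sf3b3 and U2af2, and the lowest difference of the class was -0.77 at 6 h and -0.51 at 12 h. Sf3b3 stood at 9.55 and 9.86 on the 6 h control arrays and at 9.03 and 8.85 with Akti1/2. U2af2 stood at 6.5 and 6.4 against 5.5 and 5.8, and was above background on 1 of these 2 Akti1/2 arrays. Sf3a2 was above background on both arrays of 2 h Akti1/2 cells and not on the 2 h control arrays, where it was therefore at least 1.25-fold lower (adjusted p = 0.0284, limma), a call lost without 2 h control replicate 2 or 2 h Akti1/2 replicate 2.

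Among the Prp factors, 2 of 8 were lower at 12 h, near the 24.8% of all genes, and 1 higher, beside 24.2%. Prpf38a, which joins with the tri-snRNP, was lower at 6 h (-0.50) and 12 h (-0.76 ± 0.11, adjusted p = 9.86e-05, limma), as was Prpf3, a U4/U6 protein, at -0.41 and -0.47 (adjusted p at 12 h = 0.00340, limma). Prpf6, which bridges U5 and U4/U6, was higher at 6 h (0.40) and 12 h (0.69 ± 0.12, adjusted p = 5.36e-04, limma): control arrays went from 9.00 and 9.10 at 0 h to 8.72 and 8.63 at 12 h, and Akti1/2 arrays from 8.89 and 8.92 to 9.40 and 9.31. The 2 conditions thus left their resting level in opposite directions, a fall of 0.38 and a rise of 0.45, though the fall in control cells was not called without any 1 of the 4 arrays it compares, and the rise was lost without 0 h Akti1/2 replicate 1 or 12 h Akti1/2 replicate 1. The 6 h difference in Prpf6 was lost without 6 h control replicate 1 or 6 h Akti1/2 replicate 2. Prpf38b differed at 6 h alone (-0.57), where control cells had risen, and stood at -0.08 at 12 h. Prpf18 fell in control cells at 6 and 12 h. With Akti1/2 it was higher at 6 h by 0.37 (adjusted p = 0.0314, limma), a call lost without 6 h control replicate 1 or 6 h Akti1/2 replicate 1 and when scaled to the same mean, and its responses to 6 h differed by 0.61 (adjusted p = 0.0281, limma), lost without any of 5 arrays. At 12 h the difference between conditions was 0.19 (adjusted p = 0.231, limma).

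The SR proteins held the largest single differences. At 12 h 7 of 11 were lower (63.6% beside 24.8% of all genes) and none higher (beside 24.2%), with a median of -0.97 beside -0.02 for all genes. At 6 h 7 were lower (63.6% beside 18.8%) and 1 higher (9.09% beside 18.8%), the latter being Srek1, which was near background. The 11 include Srek1 and Sfswap, which were above background on no 12 h array. Leaving out any single array left 7 or 8 lower at 12 h and 6 or 7 at 6 h. Srsf6 showed the largest difference of any tested entry at 12 h. Its control arrays read 10.82 and 10.86 at 0 h, 10.72 and 10.73 at 2 h, 10.77 and 10.79 at 6 h, then 10.36 and 10.17 at 12 h, and its Akti1/2 arrays 10.63 and 10.49, 10.27 and 10.34, 9.95 and 9.96, then 8.69 and 8.91. The Akti1/2 arrays were below the control arrays at all 4 times, 0 h included, where the difference was not called, and the gap widened with time. It was -0.83 at 6 h and -1.46 ± 0.11 at 12 h (adjusted p = 1.10e-04 and 7.69e-07, limma), or 0.363 times the control intensity. Control cells also lost Srsf6 by 12 h (-0.58, adjusted p = 0.00201), less than Akti1/2-treated cells did (-1.76); the 2 changes differed by -1.18 (adjusted p = 1.56e-04, both limma).

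Srsf3, the smallest SR protein, went up in one condition and down in the other. Control arrays rose from 7.76 and 8.05 at 0 h to 8.28 and 8.35 at 2 h and 8.58 and 8.62 at 6 h and were at 8.18 and 8.19 at 12 h. Akti1/2 arrays stayed at 8.09 and 7.94, 7.98 and 8.09 and 7.93 and 7.93 through 6 h and dropped to 6.72 and 6.87 at 12 h. The difference was thus -0.67 at 6 h, mostly from the rise in control cells, and -1.39 ± 0.12 at 12 h, mostly from the fall with Akti1/2 (adjusted p = 7.57e-04 and 1.66e-06, limma).

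Srsf9, known to repress as well as favour exon use, differed early. Its control arrays stayed at 11.84 and 11.64, 11.89 and 11.66, 11.81 and 11.73, then 12.00 and 11.87 at 0, 2, 6 and 12 h, and its Akti1/2 arrays went through 11.63 and 11.66, 10.84 and 11.00, 10.73 and 10.66, then 10.33 and 10.78. Most of the fall was present at 2 h, where the difference was -0.85 ± 0.15 (adjusted p = 0.00153), and it reached -1.39 at 12 h (adjusted p = 9.86e-06, both limma). At 2 h this was the largest negative difference among the tested entries.

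Srsf1, the best-known SR protein (ASF/SF2), diverged in the 2 conditions. It rose in control cells from 11.90 and 11.91 to 12.30 and 12.45 at 6 h, then 12.26 and 12.36 at 12 h, and fell with Akti1/2 from 11.73 and 11.80 to 11.49 and 11.54, then 11.17 and 11.40. The difference was -0.42 at 2 h, -0.86 at 6 h and -1.02 ± 0.12 at 12 h (adjusted p = 0.0208, 1.50e-04 and 2.09e-05, limma). The rise in control cells at 12 h was not called without any 1 of the 4 arrays it compares, the fall with Akti1/2 at 12 h was not called without 12 h Akti1/2 replicate 1, and the 2 h difference was lost without any of 3 arrays. Srsf11, an SR-related factor found with U2AF, was at -0.81 at 6 h and -0.97 at 12 h (adjusted p = 6.21e-05 and 6.97e-06, limma), with 12 h arrays of 8.57 and 8.62 in control and 7.60 and 7.65 in Akti1/2-treated cells. Srsf7 and Srsf2 complete the 7 and are named after their values were seen: they were at -1.08 and -0.85 at 12 h (adjusted p = 6.46e-05 and 6.26e-05, limma).

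Not every SR gene belonged to this pattern. Srsf5 fell in both conditions, from 11.62 and 11.56 at 0 h to 10.22 and 10.22 at 12 h in control cells and from 11.55 and 11.57 to 9.59 and 10.20 with Akti1/2. It lost 1.37 and 1.66 on the log2 scale, and the difference between conditions at 12 h was -0.33 (95% interval -0.69 to 0.03, adjusted p = 0.124, limma). Srsf4, named after its value was seen, was at 0.03 at 12 h (95% interval -0.25 to 0.31), which ends above the differences of all 7. Srek1 was the SR entry called higher at 2 and 6 h, but it was above background on 1 array of each of these Akti1/2 groups and on no control array, and no fold can be given. It passed the filter only through these arrays, so its calls are not independent of the filter. Sfswap (Sfrs8) was above background on no 12 h array. Sugp2 (Sfrs14), an SR-related gene, was higher at 12 h by 0.47 (adjusted p = 0.0208, limma), a call lost without 12 h control replicate 2 or 12 h Akti1/2 replicate 1. The entry Sfrs16, with no gene ID match, was lower at 2 h (-0.48, adjusted p = 0.0312, limma) and at -0.06 at 12 h.

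The hnRNP class was mixed. At 12 h 6 of 17 entries were lower and 1 higher (median -0.31), or 35.3% and 5.88% beside 24.8% and 24.2% of all genes. At 6 h 3 were lower (17.6% beside 18.8% of all genes) and none higher (beside 18.8%). At 2 h 2 went each way, or 11.8% lower beside 14.9% of all genes and 11.8% higher beside 13.5%. The lower share was thus above that of all genes at 12 h alone. Without 12 h Akti1/2 replicate 1 the 12 h calls became fewer, and without 6 h Akti1/2 replicate 1 the 6 h calls were lost. Hnrnpa2b1, which encodes the RNA-binding proteins A2 and B1, had the largest difference among them at 12 h. Control arrays read 10.76 and 10.80, 10.73 and 10.72, 10.91 and 11.04, then 10.93 and 10.76 at 0, 2, 6 and 12 h, and Akti1/2 arrays 10.66 and 10.92, 10.75 and 10.90, 10.56 and 10.67, then 9.42 and 9.51. Most of the fall came after 6 h: the difference was -0.36 at 6 h, a call lost without any of 3 of the 4 arrays at that time, and -1.38 ± 0.12 at 12 h (adjusted p = 1.88e-06, limma), or 0.384 times the control intensity.

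Hnrnpll, a splicing repressor of the CD45 exons in activated T cells, was lower at 6 h (-0.62, a call lost without 6 h Akti1/2 replicate 1) and 12 h (-0.98 ± 0.16, adjusted p = 2.98e-04, limma), with 12 h control arrays at 9.29 and 9.47 and Akti1/2 arrays at 8.32 and 8.48. Hnrnpab rose in control cells from 13.73 and 13.76 to 14.15 and 14.19 at 12 h and fell with Akti1/2 from 13.63 and 13.56 to 13.21 and 13.23, a difference of -0.95 (adjusted p = 2.83e-05, limma). Neither the rise in control cells nor the fall with Akti1/2 was called without any 1 of its 4 arrays. Hnrnph1 was at -0.59 at 12 h (adjusted p = 4.86e-04), and the second entry of similar name, Hnrph1, at -0.70 (adjusted p = 0.0158, both limma), a call lost without 12 h control replicate 2 or 12 h Akti1/2 replicate 1. Hnrnpa1, the paralogue of A2/B1 that antagonizes SR proteins at splice sites, was the hnRNP entry that was higher. Its control arrays were at 10.74 and 10.89 at 0 h, 11.11 and 11.16 at 6 h, then 10.73 and 10.74 at 12 h and its Akti1/2 arrays at 11.02 and 10.95, 11.32 and 11.40, then 11.39 and 11.54, which made 0.73 ± 0.10 at 12 h (adjusted p = 1.06e-04, limma). Hnrnpa1 has near-identical processed copies in the genome, and how far the array value is shared with them is not given. Hnrnpl was higher at 2 h alone (0.71 ± 0.14, adjusted p = 0.00277, limma), with arrays of 12.61 and 12.51 against 11.84 and 11.85, and stood at 0.07 at 12 h (95% interval -0.22 to 0.37). At 2 h Hnrnph3 was lower by 0.71 (adjusted p = 0.00515, limma). Hnrnpul1 was above background on both 2 h Akti1/2 arrays and on neither control array, at least 1.13-fold higher (adjusted p = 0.0128, limma). That call was lost without 2 h control replicate 1 or 2 h Akti1/2 replicate 2. Hnrnpul1 was above background on no other array, so it passed the filter only through the group where it was higher. Its call is therefore not independent of the filter. The 2 entries of Hnrnpk were not called at any time between conditions, at -0.31 and -0.12 at 12 h. Of the 10 hnRNP entries not called at 12 h, Hnrnpul1 was above background on no 12 h array and Hnrnph2 on 1 control array alone, and the other 8 ran from -0.35 (Hnrpc) to 0.13 (Hnrnpc).

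**Figure D4:**
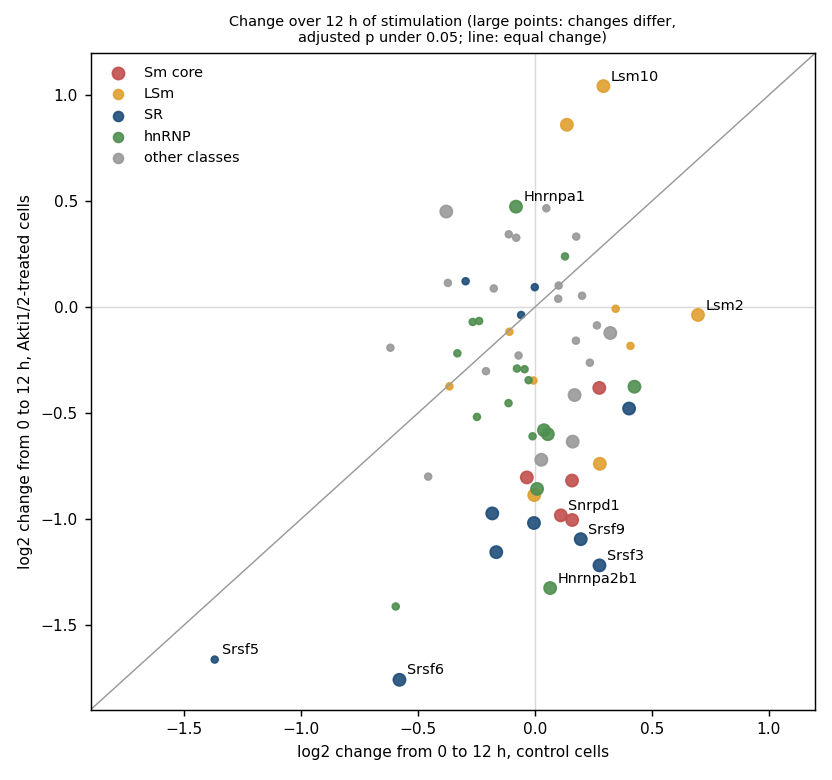
Log2 change from 0 to 12 h of stimulation in control cells (x axis) and in Akti1/2-treated cells (y axis) for the 64 tested entries, coloured by class; large points have a limma adjusted p under 0.05 for the difference between the 2 changes and the line marks equal change. Most large points lie below the line, 24 in all against 4 above it, and Srsf5 lies near the line with a fall in both.

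The change from 0 to 12 h differed between conditions for 28 of 64 entries (43.8% beside 32.5% of all genes). Of the 28, 24 went toward lower levels with Akti1/2 (37.5% beside 16.2%) and 4 toward higher (6.25% beside 16.3%). These included all 5 Sm core and 7 of 11 SR genes, 5 of 17 hnRNP and 3 of 10 LSm genes among the 24. The 4 that went toward higher levels were Prpf6 (0.83), Lsm10 (0.75), Lsm14a (0.72) and Hnrnpa1 (0.55). Within Akti1/2-treated cells the turn came late: 11 entries rose and 8 fell from 0 to 2 h (29.7% beside 38.7% of all genes; 8 and 11 when scaled to the same mean), 6 rose and 13 fell to 6 h (29.7% beside 33.3%), and 6 rose and 29 fell to 12 h (54.7% beside 44.5%; 45.3% fell beside 23.3%), a count that shares its 12 h arrays with the former ones. At 6 h the responses differed for 15 entries (23.4% beside 19.5%), 12 lower and 3 higher beside 9.24% and 10.3% of all genes, and at 2 h for 5 (7.81% beside 8.4%), 2 higher and 3 lower beside 4.23% and 4.16%. By quantile normalization without background correction the differences at 6 h were 13 lower and 6 higher, and those at 12 h 24 and 8. The 6 h count fell to 5 without 0 h control replicate 1, to 7 or 8 without either 0 h Akti1/2 array or either 6 h control array, and to 9 without 0 h control replicate 2, whereas the 12 h count stayed between 23 and 29.

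Other genes of splicing, from a list of 93 on the array of which 75 were tested, gave 26 lower and 12 higher at 12 h (24.8% and 24.2% of all genes), 20 lower and 10 higher at 6 h (18.8% and 18.8%), and 5 lower and 9 higher at 2 h (14.9% and 13.5%). The list was drawn up by role. In the snRNP assembly list, 7 of 12 were lower at 12 h and none higher (median -0.50), beside 24.8% and 24.2% of all genes. Gemin6 and Gemin4 of the SMN complex were at -1.39 (adjusted p = 1.32e-06) and -1.10 (adjusted p = 6.33e-06). Of the methylosome that modifies Sm proteins, Wdr77, Clns1a and Prmt5 were at -1.22, -0.84 and -0.45 (adjusted p = 1.15e-04, 1.30e-05 and 0.00899, limma). Smn1 itself was at -0.14 (95% interval -0.40 to 0.12).

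Among the kinases of SR proteins and SR-like genes, 4 of 9 were higher at 12 h and none lower (median 0.23), beside 24.2% and 24.8% of all genes. No SR gene was higher. Srpk2, Srpk1, Clk1 and Clk4, which phosphorylate SR proteins, were at 1.22, 0.74, 0.74 and 0.68 (adjusted p = 0.00133, 2.89e-04, 0.00393 and 5.61e-04, limma). In the exon junction list 5 of 7 were lower and 1 higher, beside 24.8% and 24.2% of all genes, with its core proteins Rbm8a at -1.61 and Magoh at -0.97. Of 13 tri-snRNP and helicase genes 6 were lower and none higher, beside the same shares, led by Snu13 (Nhp2l1 on the array), which binds U4, at -1.67 ± 0.17 (adjusted p = 8.34e-06, limma). In the PRP19 and second-step list 3 of 9 were higher and 1 lower, near the shares of all genes for the former, with Syf2 at 1.10 and Slu7 at 1.04. These genes are named for their size of difference after their values were seen.

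**Figure D5:**
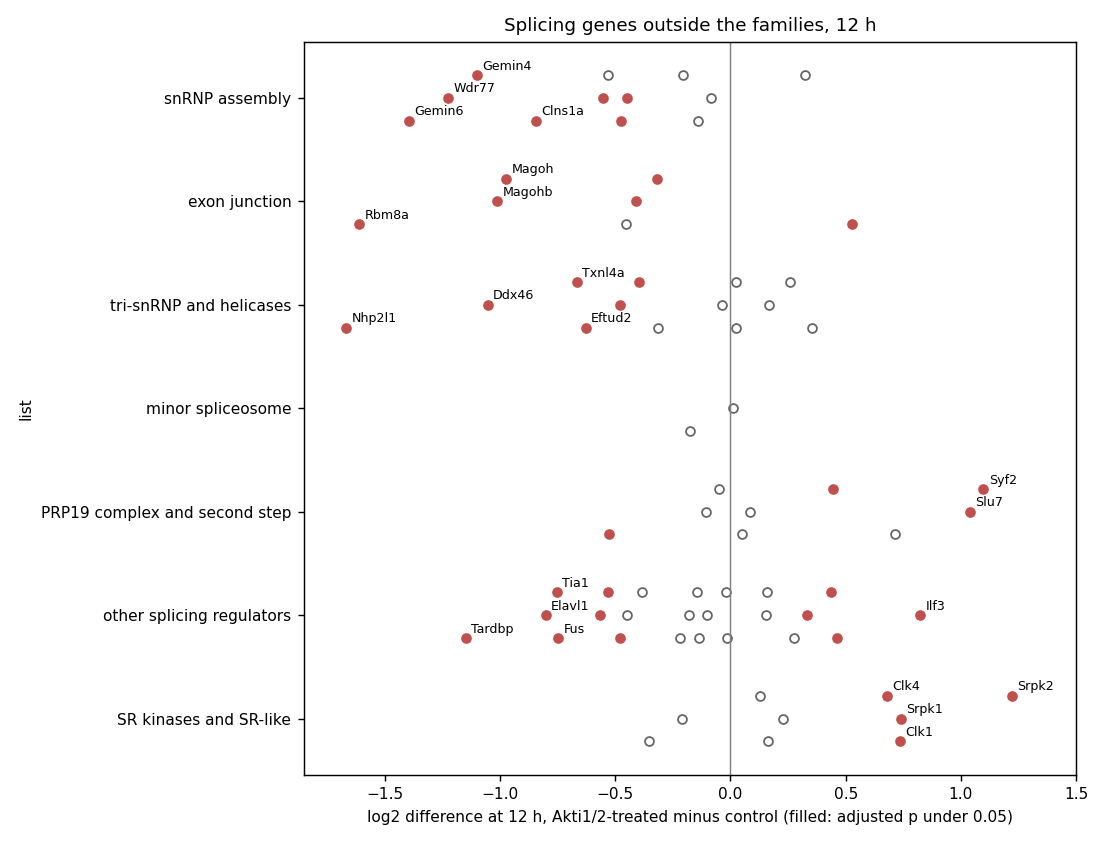
Log2 difference between Akti1/2-treated and control cells at 12 h (x axis) for the 75 tested splicing genes outside the families, by list (y axis); filled points have a limma adjusted p under 0.05, and the larger ones are named. Filled points of the snRNP assembly list all lie left of 0 and those of the SR kinase list all lie right of 0.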

How the data were processed

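RNA of D10 cells was measured on 16 Illumina mouse bead arrays, 2 for each of 8 groups taken from the sample titles. The authors deposited mean bead intensity per gene and array, exported from GenomeStudio without normalization or background subtraction, with detection p-values and 798 negative controls among 832 control entries; a second table that repeats control values of these arrays was not used. From these intensities, limma 3.58.1 in R 4.3.3 was used here to correct the background on the negative controls (neqc, offset 16), normalize by quantiles and take log2. The filter kept 7395 of 18138 genes, those whose detection p was below 0.01 on 2 or more of 16 arrays, and these were fitted in 1 linear model of 8 groups with empirical Bayes moderation, and 13 contrasts were each adjusted by Benjamini-Hochberg over all 7395 genes. Log2 values are normalized intensities, and a bound is given where a gene was not well above background in 1 group. Promoters and figures used Python 3.11.15 (pandas 2.3.3, numpy 2.4.6, matplotlib 3.10.9), with promoter sequences from RefSeq on GRCm38.p6.

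Members and lists were chosen with earlier results of these data known. Within each class, the genes named are the 5 with the smallest adjusted p between conditions at 2, 6 and 12 h, the 3 with the smallest against 0 h in control cells, the 3 with the largest called difference of responses, and any called at 0 h; others are named after their values were seen. Each result was recomputed with no background correction before the quantile step, with arrays set to 1 common mean, with no filter or detection required on all 16 arrays, with the replicate number or the chip as a block, within each of 2 chips, with the compared groups alone, and without each array in turn. The fit of the 12 h comparison was also run on simulated data with 200 changed genes, and the outcome is not given here.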

Additional observations from a re-analysis of the deposited data

Results flagged for a closer look

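By the test of the difference itself, the change from 0 h differed between Akti1/2-treated and control cells for 5 of 64 members at 2 h (7.81% beside 8.4% of all genes). It differed for 15 at 6 h (23.4% beside 19.5%) and 28 at 12 h (43.8% beside 32.5%). Stimulation and time with the inhibitor change together in this test and cannot be told apart. The 5 at 2 h were all lost under 1 or another omission of an array, and of the 15 and 28, 5 and 22 were called under every omission.

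For 4 of these members the response was called in both conditions and in opposite directions. Hnrnpab rose by 0.43 in control cells over 12 h and fell by 0.38 with Akti1/2, a difference of -0.80 on the log2 scale. Srsf1 (Sfrs1 on the array) rose by 0.40 and fell by 0.48, a difference of -0.88. Prpf6 fell by 0.38 and rose by 0.45, a difference of 0.83. Lsm10 fell by 0.55 at 2 h in control cells and rose by 0.50 with Akti1/2, a difference of 1.05. The control response of Hnrnpab, Srsf1 and Prpf6 was not called when any 1 of its 4 arrays was left out, and that of Lsm10 was not called without any of 10 arrays. The responses with Akti1/2 were not called without any 1 of 4 arrays (Hnrnpab and Lsm10, the latter also not under the same-mean scaling), without either of 2 arrays (Prpf6) and without 12 h Akti1/2 replicate 1 (Srsf1).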

How the results depend on the processing

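Among the genes named by the rule given above, no called result changed direction in any alternative. For the other members only the signs within each of the 2 chips were compared, and every called difference had the same sign on both. Between conditions the counts at 6 and 12 h were within 1.5 times of 28 and 33 in every alternative but 1. With the compared groups alone, which leaves fewer arrays to estimate the spread, 10 members were called at 6 h against 0 h with Akti1/2 (19 with all groups), 8 between conditions at 2 h (18), 15 at 6 h (28) and 8 for the difference of responses at 6 h (15). The 2 calls of control cells at 2 h became 7 without background correction, 0 without a filter, 4 with genes detected on all arrays, 1 with the replicate number as a block, 1 with the chip as a block and 0 with the compared groups alone; the 5 differences of response at 2 h became 8 without background correction and 2 without a filter. Same-numbered arrays did not consistently deviate together (correlations of -0.296 to 0.264 over 28 pairs of groups, 7 of them over 0.1). This cannot tell whether same-numbered arrays came from a shared culture, and the replicate number coincides with the chip in every group but 12 h control. With the replicate block the counts between conditions were 18, 27 and 34 at 2, 6 and 12 h, and of the counts given here it moved only that of control cells at 2 h by over 1.5 times.

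Scaling to the same mean moved the share of calls that were higher from 50% to 0% in control cells at 2 h, from 57.9% to 42.1% with Akti1/2 at 2 h and from 50% to 37.5% between conditions at 2 h, and quantile normalization alone moved it from 20% to 31.6% and from 14.3% to 25% for the differences of response at 6 and 12 h. Under the same-mean scaling the median of all genes moved by over 0.1 for the difference of response, from -0.009 to 0.119 at 6 h and from -0.022 to 0.081 at 12 h, where the medians of the members were -0.171 and -0.267.

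The median difference between conditions of the Sm and LSm genes together was 0.157 at 2 h within chip 2, -0.363 and -0.137 at 6 h within chips 1 and 2, and at 12 h -0.737 under the same-mean scaling and -0.696 with genes detected on all arrays. That of the U2 class was -0.246 at 6 h and -0.237 at 12 h within chip 2 and 0.072 at 12 h with genes detected on all arrays. For SR genes it was -0.486, -0.526, -0.707 and -0.455 at 6 h (no background correction, same mean, chip 1, chip 2) and -0.809 at 12 h without background correction. For hnRNP genes it was -0.079, -0.046, 0 and -0.127 at 6 h in the same order, and at 12 h -0.220 without background correction and -0.391 and -0.212 within chips 1 and 2. The causes of these shifts were not tested.

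Leaving out 1 array at a time gave 0 to 5, 4 to 12 and 4 to 10 calls in control cells at 2, 6 and 12 h, 9 to 20, 14 to 20 and 26 to 36 with Akti1/2, 0 to 0, 9 to 19, 20 to 28 and 27 to 35 between conditions at 0, 2, 6 and 12 h, and 0 to 7, 5 to 16 and 23 to 29 differences of response. The Akti1/2 count at 2 h was 9 without 0 h Akti1/2 replicate 1, 12 without replicate 2 and 11 without 2 h Akti1/2 replicate 2. Class medians at 2, 6 and 12 h ran from 0.034 to 0.165, -0.287 to -0.215 and -0.693 to -0.533 (Sm and LSm), -0.063 to 0.206, -0.250 to 0.156 and -0.229 to 0.047 (U2), -0.312 to -0.217, -0.686 to -0.483 and -0.993 to -0.893 (SR), and -0.028 to 0.004, -0.214 to -0.109 and -0.381 to -0.216 (hnRNP). Of the 18, 28 and 33 members called between conditions at 2, 6 and 12 h, 6, 14 and 27 were called under every omission. Members near background have only bounds (Sf3a2 at 2 h) or no fold at all (Srek1).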
